A study of Rattus norvegicus with 9 samples.

Results

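The Hox genes of the rat hippocampal transcriptome were examined as every row of the deposited table whose symbol is Hox, a cluster letter from a to d, and a number. This rule found 23 genes among 21138 rows, with no filter on expression. The set held 3 Hoxa genes, 8 Hoxb genes, 6 Hoxc genes and 6 Hoxd genes. RefSeq lists 39 such symbols for the rat, and the other 16, of which 12 belong to paralogue groups 9 to 13, had no row of that symbol and were not analysed here. No row was at 0 in every library, so a gene undetected in all of them may have no row.

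RNA was sequenced from hippocampal tissue of male, wild-type Sprague-Dawley rats, 6 months old at purchase, on day 56. The INS + VD group had both common carotid arteries ligated, a model of vascular dementia (VD) that lowers blood flow to the whole forebrain, and received insulin by intranasal spray at 1 U/kg per day. The VD group had the same ligation and received 0.9% saline at 0.5 mL per day. The CK group was the control without ligation, labelled with the same saline, although the study's methods also describe it as untreated. Each group had 3 libraries, called by group and replicate number (VD-2 is VD replicate 2). The table gives FPKM, the fragments of a gene scaled to its length and to the mapped fragments of the library. The study's methods call the replicates biological, while nothing in the labels ties a library to a single rat, and the p-values cover the spread between these libraries.

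Hox genes encode homeodomain transcription factors that give cells their position along the head-to-tail axis. They lie in clusters in which genes at one end (low paralogue numbers) are switched on further forward, in the hindbrain, and genes at the other end further back, in the trunk and tail. Neurons of the hindbrain and spinal cord keep this Hox pattern in the adult, whereas the forebrain, including the hippocampus, forms in front of the Hox-expressing territory.

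Promoter sequences are shown for 4 of the genes because the members appeared together in 1 library, and because these genes stand for different levels and for different motifs. RefSeq windows of 300 bases, 250 before to 50 after the start of the gene, matched 10 of the 23 members (build GRCr8, 5′ to 3′ along the gene's own strand). Capitals mark a match, on either strand, to TGATNNAT, a site form bound by Hox proteins together with Pbx, or to AGGTCA, the half-site of retinoic acid receptors, which induce Hox genes in the embryo.
Hoxc4 promoter, chr7:136048809-136049108, plus strand: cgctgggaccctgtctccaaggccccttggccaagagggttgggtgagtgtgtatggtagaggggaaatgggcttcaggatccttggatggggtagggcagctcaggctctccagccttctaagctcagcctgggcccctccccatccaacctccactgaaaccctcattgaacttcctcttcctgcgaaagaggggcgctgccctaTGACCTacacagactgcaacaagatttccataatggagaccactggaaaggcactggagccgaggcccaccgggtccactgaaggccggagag
Hoxd4 promoter, chr3:80021636-80021935, plus strand: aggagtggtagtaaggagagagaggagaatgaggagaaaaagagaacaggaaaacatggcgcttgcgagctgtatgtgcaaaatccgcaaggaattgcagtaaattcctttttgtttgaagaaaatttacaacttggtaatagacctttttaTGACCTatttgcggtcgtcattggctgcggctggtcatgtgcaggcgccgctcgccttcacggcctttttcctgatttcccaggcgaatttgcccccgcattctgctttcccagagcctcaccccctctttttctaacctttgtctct
Hoxd1 promoter, chr3:80072791-80073090, plus strand: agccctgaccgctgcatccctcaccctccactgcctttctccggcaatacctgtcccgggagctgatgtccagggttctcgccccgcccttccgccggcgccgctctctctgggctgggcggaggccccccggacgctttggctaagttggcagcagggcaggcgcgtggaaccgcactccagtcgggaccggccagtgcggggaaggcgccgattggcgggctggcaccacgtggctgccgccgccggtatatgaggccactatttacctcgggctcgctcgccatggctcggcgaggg
Hoxb1 promoter, chr10:81827665-81827964, plus strand: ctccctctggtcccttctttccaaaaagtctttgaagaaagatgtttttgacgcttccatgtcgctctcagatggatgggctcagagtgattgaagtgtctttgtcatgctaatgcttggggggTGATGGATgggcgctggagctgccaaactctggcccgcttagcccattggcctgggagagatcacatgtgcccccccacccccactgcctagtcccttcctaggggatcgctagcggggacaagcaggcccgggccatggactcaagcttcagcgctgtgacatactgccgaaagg

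AGGTCA was present in 2 of the 10 Hox windows, those of Hoxc4 and Hoxd4, and in 15.7% of 27457 RefSeq promoters of the same length. TGATNNAT was present in 2 (Hoxb1 and Hoxa2), against 8.82% of all promoters. The homeodomain core TAATTA occurred in 0 of the 10 windows and in 5.35% of all promoters, and TATAAA occurred in 1 (Hoxd13) and in 14.3%. The windows of Hoxd1, the only member detected in every library, and of Hoxd3, Hoxa4, Hoxd8 and Hoxd9 held none of the 4 motifs searched. Hox windows had a median of 23 CpG dinucleotides, against 7 over all promoters, with a range of 6 (Hoxc4) to 49 (Hoxd8). These matches describe letters in a window and were not tested for a part in expression.

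The tissue label was checked against forebrain and hippocampal markers. The summed FPKM of 12 forebrain transcription factors was 271, 29.2 and 221 in INS + VD-1, -2 and -3. In VD-1, -2 and -3 it was 176, 5.16 and 146, and in CK-1, -2 and -3 it was 305, 305 and 20.9. This sum was thus lowest in VD-2, CK-3 and INS + VD-2. The hippocampal neuron markers did not give the same order, since their sum was lowest in VD-2 but highest in CK-3, at 761 FPKM, where Calb1 (460 FPKM), which also marks cerebellar Purkinje cells, and Nptx1 (246 FPKM) gave most of it. VD-1 had 14428 genes above 0 FPKM, against 17441 to 18088 in the other 8 libraries. Depth, recovered from the steps between low FPKM values, expressed in units of 1e6 fragments, was 16.5 to 18.3 per library, so it was similar across the 9.

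Hox transcripts were almost confined to 1 of the 9 libraries, VD-2. The summed FPKM of the 23 genes was 0.148, 0.516 and 0.248 in INS + VD-1, -2 and -3. It was 0.330, 118.7 and 0.266 in VD-1, -2 and -3. In CK-1, -2 and -3 it was 0.0304, 0.213 and 0.192. The VD mean was therefore 39.8 ± 68.4 FPKM (SD, n = 3), against 0.304 ± 0.190 in INS + VD and 0.145 ± 0.0999 in CK (n = 3 each), and without VD-2 the VD mean was 0.298 ± 0.0457 (n = 2). VD-1 and VD-3 thus lay within the range of the INS + VD libraries, and the high VD mean came from a single library.

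Presence followed the same split. In VD-2, 20 of the 23 Hox genes were above 0 FPKM, 17 were above 0.1, 15 above 0.5 and 13 above 1. Of all rows, 83.1% were above 0 and 62.5% above 1 in VD-2, while in the 8 others 68.3% to 85.6% of all rows were above 0. No row was at 0 in every library, so a member above 0 in VD-2 alone has a row only through VD-2. The shares over all rows are therefore no yardstick for the detection of Hox genes there. In the other libraries 2, 6 and 2 members were above 0 in INS + VD, 1 and 2 in VD-1 and VD-3, and 1, 3 and 1 in CK, and 0 members exceeded 0.5 FPKM in any of these 8. The 3 members at 0 in VD-2 were Hoxc8, Hoxc9 and Hoxc13. All 20 members detected in VD-2 had their highest value there, whereas 10.3% of all rows did, and 15 of the 20 were detected in no other library. For those 15 the highest value could lie nowhere else, so the share over all rows is no yardstick for them. The other 5 were also detected elsewhere, at lower values.

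**Figure D1:**
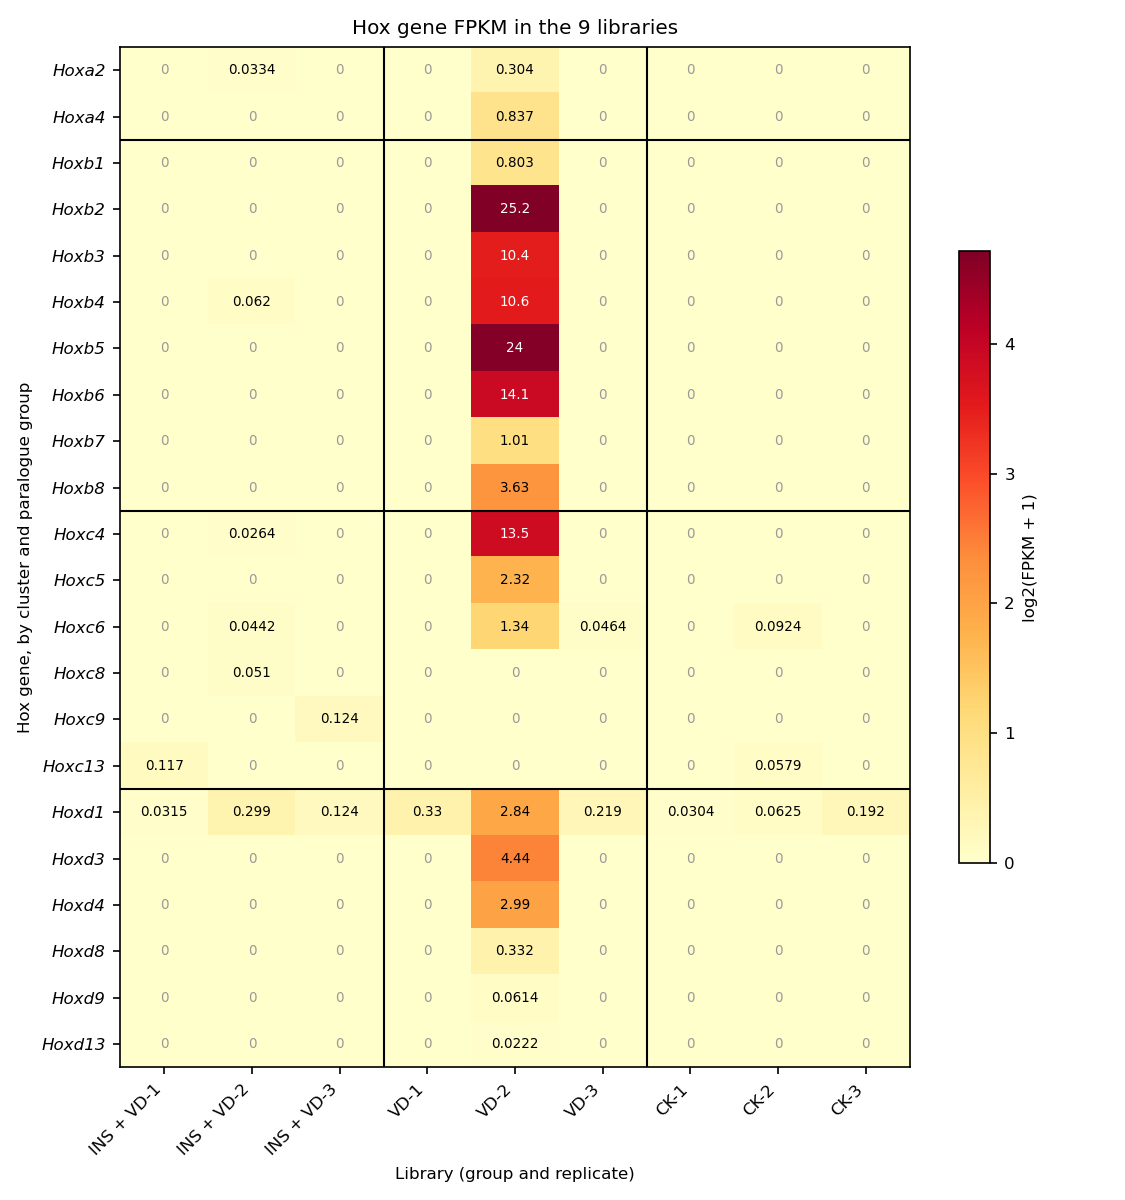
FPKM of 22 of the 23 Hox genes (rows, by cluster and paralogue group) in the 9 libraries (columns, INS + VD, VD and CK), with the value printed in each cell and colour as log2(FPKM + 1). The VD-2 column holds 19 values above 0, up to 25.2 for Hoxb2, and Hoxd1 is the only row above 0 in every library.

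The Hoxb cluster gave most of the Hox signal in VD-2, 75.5% of the summed FPKM. Its 8 members span 84.2 kb of chromosome 10 in the table (start 84131495, end 84215687; the build of the table's positions is not stated). Hoxb2, which patterns hindbrain segments and their motor neurons in the mouse, was the most abundant Hox gene at 25.2 FPKM in VD-2 and at 0 in the 8 other libraries. This level exceeded that of 85.4% of all rows in the same library. Hoxb5, a gene of the posterior hindbrain and of vagal neural crest, was at 24.0 FPKM in VD-2 and at 0 elsewhere. Hoxb6, a trunk-level gene, was at 14.1 FPKM and Hoxb3, a gene of the middle and posterior hindbrain, at 10.4 FPKM in VD-2, both also at 0 in the 8 others.

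Hoxb4, a gene with a forward limit in the posterior hindbrain, was at 10.6 FPKM in VD-2 (337 fragments) and at 0.0620 FPKM in INS + VD-2 (2 fragments), with 0 in the remaining 7 libraries. Hoxb8, a gene of the spinal cord, was at 3.63 FPKM in VD-2. Hoxb7 was lower at 1.01 FPKM, and Hoxb1, which specifies 1 segment of the hindbrain and the facial motor neurons in the mouse, was at 0.803 FPKM. Those 3 were at 0 in all 8 other libraries. Within the cluster, Hoxb2 to Hoxb6 were thus at 10.4 to 25.2 FPKM, and Hoxb1 on one side and Hoxb7 and Hoxb8 on the other were at 0.803 to 3.63 FPKM.

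The Hoxc cluster held 14.5% of the summed Hox FPKM of VD-2, and it divided at its middle. Hoxc4, active from the posterior hindbrain and upper cervical cord backwards, was at 13.5 FPKM in VD-2 (507 fragments) and at 0.0264 FPKM in INS + VD-2 (1 fragment). Hoxc5 was at 2.32 FPKM in VD-2 and at 0 elsewhere. Hoxc6, which marks the forelimb level of the spinal cord, was at 1.34 FPKM in VD-2 (30 fragments).

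Outside VD-2, Hoxc6 was at 0.0442 FPKM in INS + VD-2, 0.0464 in VD-3 and 0.0924 in CK-2, each resting on 1 or 2 fragments. The 3 members further back were not detected in VD-2. Hoxc8, which shapes forelimb motor pools in the mouse, was above 0 only in INS + VD-2 (0.0510 FPKM) and Hoxc9, which specifies thoracic motor neurons in the mouse, only in INS + VD-3 (0.124 FPKM). Hoxc13, a gene of hair follicles and of the tail end of the axis, was at 0.117 FPKM in INS + VD-1 and 0.0579 FPKM in CK-2. The Hoxc members at 0 in VD-2 were thus those with the highest numbers.

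The Hoxd cluster contributed 9.0% of the Hox signal in VD-2. Hoxd3 was its most abundant member at 4.44 FPKM, followed by Hoxd4 at 2.99 and Hoxd1 at 2.84 FPKM. Hoxd8 was at 0.332 FPKM, Hoxd9 at 0.0614 FPKM and Hoxd13, a regulator of digit formation, at 0.0222 FPKM. Since no transcript is longer than the genomic span of its row, the Hoxd13 value is at most 1 fragment and that of Hoxd9 at most 2. All of these except Hoxd1 were at 0 in the other 8 libraries, and the levels were lower with each step from Hoxd4 to Hoxd13 along the cluster.

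The Hoxa cluster had 3 rows and 1.0% of the Hox signal. Hoxa4 was at 0.837 FPKM in VD-2 and at 0 elsewhere. Hoxa2, which in the mouse shapes the skeleton of the ear and hindbrain segments, was at 0.304 FPKM in VD-2 (9 fragments) and 0.0334 FPKM in INS + VD-2 (1 fragment). RefSeq symbols such as Hoxa3 and Hoxa5 had no row of that symbol. However, 1 row described as Hox-A3 was at 0.0827 FPKM in VD-2, and 2 rows described as Hox-A5 (LOC103689922) were at 0.385 and 0.611 FPKM there, all 3 at 0 in the other 8 libraries.

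**Figure D2:**
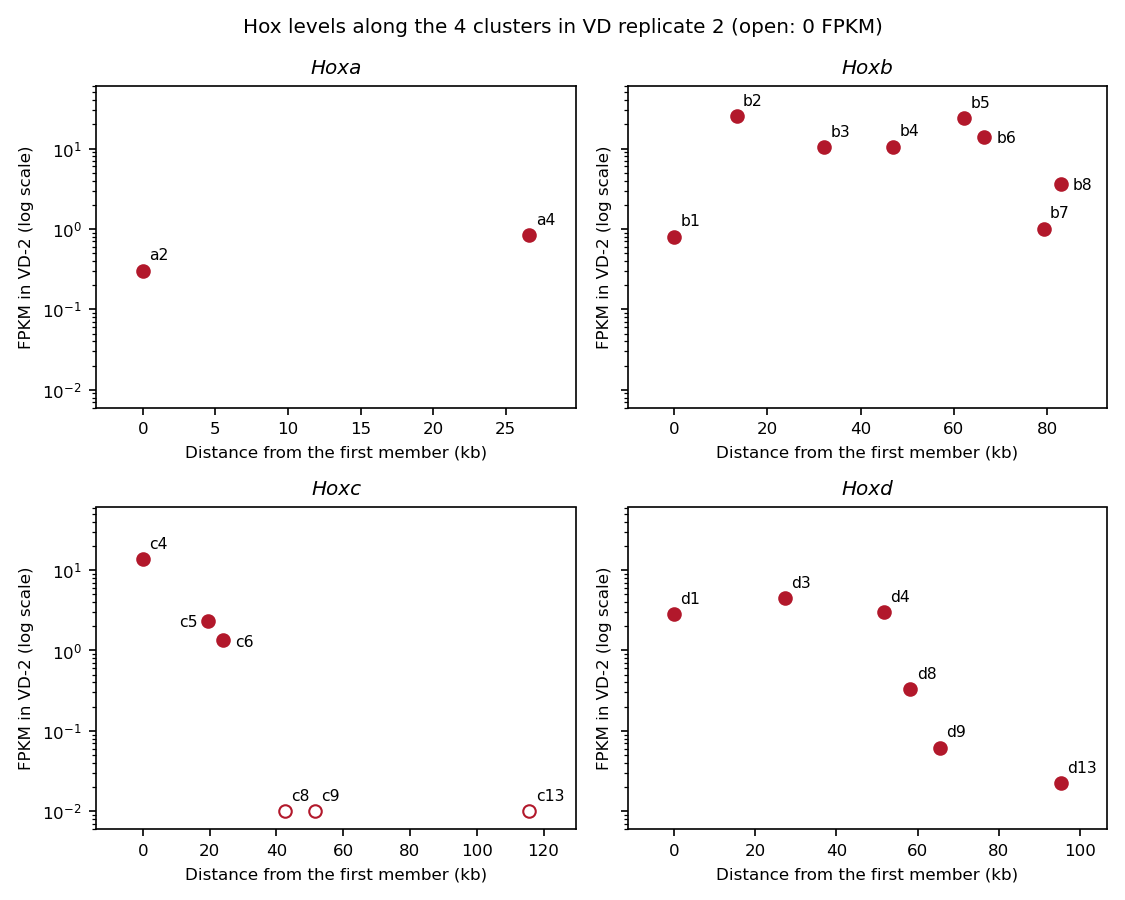
FPKM in VD-2 (log scale) of 22 members by Hox cluster against distance in kb from the start of the plotted member with the lowest number, with open circles for members at 0 (drawn at 0.01). Levels are highest from Hoxb2 to Hoxb6, fall from Hoxc4 at 13.5 to 0 at Hoxc8, and fall from Hoxd4 at 2.99 to 0.0222 at Hoxd13.

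Summed by paralogue group, groups 1 to 4, with 11 rows, held 60.6% of the Hox FPKM of VD-2. Groups 5 to 8, with 8 rows, held 39.3%. Groups 9 to 13, with 4 rows, held 0.0704%. Genes of the same number differed widely between clusters. Among the group 4 genes, Hoxc4 was at 13.5, Hoxb4 at 10.6, Hoxd4 at 2.99 and Hoxa4 at 0.837 FPKM in VD-2. In group 2, Hoxb2 was at 25.2 and Hoxa2 at 0.304 FPKM, and in group 8 Hoxb8 was at 3.63, Hoxd8 at 0.332 and Hoxc8 at 0 FPKM. These are levels per length in 1 library, with no replicate, so their order has counting error only behind it.

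Hoxd1 was the only Hox gene detected in all 9 libraries. In the mouse it acts in pain-sensing neurons. Hoxd1 was at 0.0315, 0.299 and 0.124 FPKM in INS + VD-1, -2 and -3 (1, 10 and 4 fragments). In VD-1, -2 and -3 Hoxd1 was at 0.330, 2.84 and 0.219 FPKM (10, 94 and 7 fragments). In CK-1, -2 and -3 Hoxd1 was at 0.0304, 0.0625 and 0.192 FPKM (1, 2 and 6 fragments). The VD libraries were all above the CK libraries, while the INS + VD libraries overlapped with both groups.

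The counting error was wide at these levels. The 95% Poisson interval of Hoxd1 was 0.0882 to 0.452 FPKM in VD-3 and 0.0705 to 0.418 FPKM in CK-3, so the nearest VD and CK libraries cannot be told apart at this depth. The interval in VD-2, 2.29 to 3.47 FPKM, did not reach that of any other library. By a one-sided 95% limit, a value of 0 still allows up to 3 fragments. For Hoxb4 this is 0.0946 to 0.103 FPKM in the 7 libraries where it was at 0. The two-sided interval used above reaches 0.116 to 0.127 FPKM in those libraries. These limits and intervals cover counting error only.

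**Figure D3:**
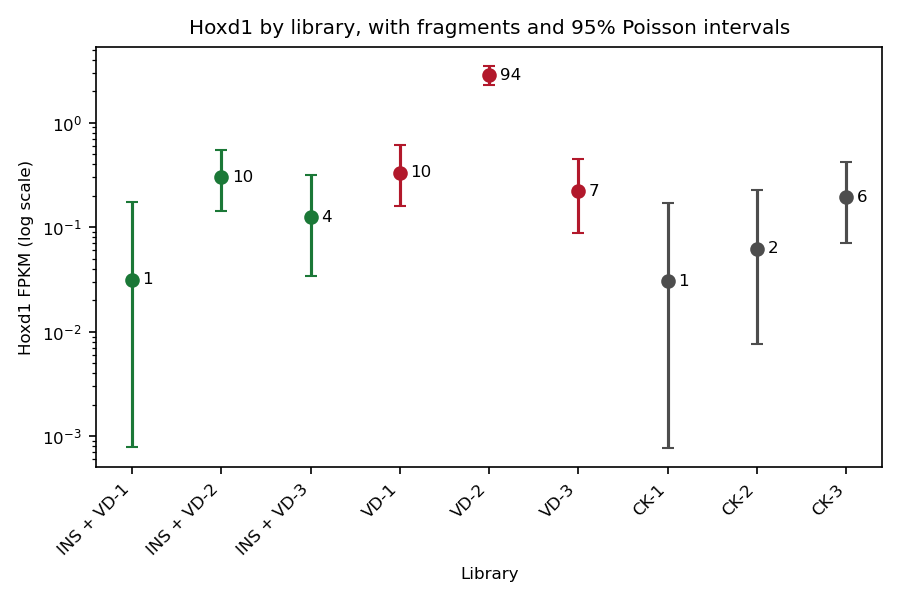
Hoxd1 FPKM (log scale) in each library of INS + VD, VD and CK, with 95% Poisson intervals as bars and the number of fragments beside each point. VD-2 with 94 fragments stands above the other 8 libraries, which hold 1 to 10 fragments each.

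Of the 184 Hox values in the 8 libraries other than VD-2, 18 were above 0, and 8 of these were Hoxd1. The other 10 lay between 0.0264 and 0.124 FPKM. INS + VD-2 held 5 of them, in Hoxa2, Hoxb4, Hoxc4, Hoxc6 and Hoxc8, and CK-2 held 2, in Hoxc6 and Hoxc13. INS + VD-1 (Hoxc13), INS + VD-3 (Hoxc9) and VD-3 (Hoxc6) held 1 each, and VD-1, CK-1 and CK-3 held none beside Hoxd1.

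The study asked which genes changed with ligation (VD vs. CK) and with insulin after ligation (INS + VD vs. VD). None of the 23 Hox genes reached 0.5 FPKM in 3 libraries, the level set for the main test, so 0 Hox genes were among its 15099 genes. Fitted without that filter over all 21138 genes with limma, 0 of 23 Hox genes passed in VD vs. CK, at the adjusted p or at the unadjusted p of 0.05, with a log2 difference of at least 1. Over all genes this share was 0% by the adjusted p and 5.72% by the unadjusted p (8.78% in the main test). In INS + VD vs. VD, 0 of 23 passed either rule, against 0% and 3.95% of all genes. In INS + VD vs. CK, 0 of 23 passed, against 0% and 0.624%. At an unadjusted p of 0.05 with any fold, 0 of 23 passed in each of the 3 comparisons, against 7.85% of all genes in INS + VD vs. VD, 10.3% in VD vs. CK and 2.46% in INS + VD vs. CK. By that rule the main test gave 9.38% of its genes in INS + VD vs. VD, 12.7% in VD vs. CK and 1.82% in INS + VD vs. CK. For the 15 members detected in VD-2 alone, the VD-2 value set both the difference and its SE. They could therefore not pass at any level, and the shares over all genes are no yardstick for them. In VD vs. CK, Hoxb2 and Hoxb3 differed by 1.57 and 1.17, both with a limma unadjusted p of 0.191.

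Group differences of Hox genes were large in places but no larger than the spread between VD libraries. In log2(FPKM + 1), Hoxb2 differed by 1.57 in VD vs. CK (SE 1.10, limma adjusted p = 0.603) and by -1.57 in INS + VD vs. VD (adjusted p = 0.641). Without VD-2 both differences of Hoxb2 were 0. Hoxb5 differed by 1.55, Hoxb6 by 1.30 and Hoxc4 by 1.29 in VD vs. CK, each with an adjusted p of 0.603 by limma. For VD vs. CK, the log2 difference was above 0 for 20 of 23 Hox genes, with a median of 0.39, against 10063 of 21138 genes and a median of 0 over all genes. For the 15 members detected in VD-2 alone, this sign was fixed. Without VD-2 the difference was above 0 for 1 Hox gene, below 0 for 2 and exactly 0 for 20.

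For INS + VD vs. VD, the difference was below 0 for 20 of 23 Hox genes (median -0.41), against 9661 of 21138 genes (median 0.01). This comparison uses the same VD libraries, so the sign was again fixed for the 15 members detected in VD-2 alone. Without VD-2 the difference was below 0 for 2 Hox genes, above 0 for 6 and 0 for 15. For INS + VD vs. CK, whose differences do not use VD-2, Hox differences ran from -0.02 to 0.07 with a median of 0, and the lowest limma adjusted p was 1. VD-2 enters the spread of this fit, since the SE of Hoxb2 was 1.10 with it and 0.024 without it, and the lowest adjusted p without VD-2 was also 1. The Hox genes of the INS + VD and CK libraries thus differed by less than 0.1 on this scale, which compresses values this close to 0. With a pseudocount of 0.1 in the unfiltered fit, the differences ran from -0.14 (Hoxc6) to 0.39 (Hoxc9).

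Hoxd1 was the only Hox gene whose groups did not overlap in any comparison, and this was in VD vs. CK, where 14.2% of all genes did not overlap and 7.53% were higher in every VD library. Every other member was undetected in some library of each group, so ties kept it from meeting this rule. The mean of Hoxd1 was 1.13 ± 1.48 FPKM in VD and 0.0950 ± 0.0857 FPKM in CK (SD, n = 3 each). Its log2 difference was 0.75 (SE 0.39), with a limma adjusted p of 0.513 and an exact two-sided permutation p of 0.1, the smallest that 3 against 3 libraries allow. Without VD-2 the difference was 0.22 (SE 0.11, limma adjusted p = 0.422).

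In INS + VD vs. VD, 0 of 23 Hox genes did not overlap, against 12.2% of all genes, with 6.33% higher in every INS + VD library. Here and in INS + VD vs. CK only Hoxd1 could have met the rule, so these counts do not describe the other members. Hoxd1 had a mean of 0.151 ± 0.136 FPKM in INS + VD and 1.13 ± 1.48 FPKM in VD, with a log2 difference of -0.68 (SE 0.39, limma adjusted p = 0.612, exact permutation p = 0.2). In INS + VD vs. CK, again 0 of 23 did not overlap, against 9.58% of all genes, with 5.19% higher in every INS + VD library, and Hoxd1 differed by 0.07 with an exact permutation p of 0.6. Adjusted over these 3 comparisons, the permutation p-values of Hoxd1 were 0.3, 0.3 and 0.6.

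Genes beside the clusters showed whether the wider loci followed the Hox genes. Evx2, a homeobox gene of spinal interneurons that lies 8.78 kb beyond Hoxd13, was at 0.987 FPKM in VD-2 and at 0 in the other 8 libraries. AABR07052559.2, an unnamed row between Hoxd3 and Hoxd1, was at 3.26 FPKM in VD-2, at 0.161 in INS + VD-2 and 0.169 in VD-3, and at 0 elsewhere. AABR07058935.1, 9.4 kb from Hoxc4, was at 0.431 FPKM in VD-2 and at 0 elsewhere.

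Some genes farther out were expressed in all libraries. Mtx2, a mitochondrial import gene 68.4 kb beyond Hoxd1, was at 25.5 FPKM in VD-2 and at 18.2 to 39.6 FPKM in the other libraries. Atp5mc1, encoding a subunit of ATP synthase on the far side of Hoxb8, was at 112 FPKM in VD-2 and at 86.1 to 408 FPKM elsewhere. Skap2, an adaptor gene beside the Hoxa cluster, was at 16.8 FPKM in VD-2, against 2.80 to 7.52 FPKM. Mtx2, Atp5mc1 and Skap2 were thus expressed in every library. An unnamed row 75.2 kb beyond Hoxc4, AABR07058936.1, was at 4.05 FPKM in VD-2, against 0.334 in INS + VD-2, 0.877 in VD-3 and 0 in the rest, so distance alone did not separate the rows.

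Hox genes were among the rows seen only in VD-2, and their share depended on the criterion. Of all rows, 200 were above 0 only in VD-2, which is 0.946% of all rows, and 15 of the 200 were Hox genes, which is 65.2% of the Hox members. These 15 members have a row only through VD-2, since no row was at 0 in every library. The 65.2% therefore does not measure how often Hox genes met this criterion. With more than 1 FPKM in VD-2 and at most 0.1 FPKM in each other library, 28 rows remained, of which 12 (42.9%) were Hox genes. The same criterion gave 13, 17 and 8 rows for INS + VD-1, -2 and -3, 22 and 30 for VD-1 and VD-3, and 7, 9 and 34 for CK-1, -2 and -3, with 0 Hox genes in each. Among the 16 other rows of VD-2 were Uts2 (6.66 FPKM), encoding urotensin II, and Lhx4 (1.59 FPKM), a motor neuron factor, which were chosen here after their values were seen.

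Markers of other nervous tissue were set beside the Hox signal. Of 20 brainstem neuron markers, 12 were highest in VD-2 and 0 were absent there, against 10.3% of all rows highest in VD-2. Their summed FPKM was 12.4 to 149 in INS + VD, 14.9 to 275 in VD, with VD-2 at 275, and 13.2 to 112 in CK. Prph, an intermediate filament of motor neurons and sensory neurons, was at 112 FPKM in VD-2 and at most 20.7 elsewhere. Slc6a5, the glycine transporter of inhibitory neurons of the brainstem and cord, was at 40.1 FPKM in VD-2 and at most 7.32 elsewhere. Slc5a7, the choline transporter, was at 20.6 FPKM against at most 1.45, whereas Slc17a6, a vesicular glutamate transporter, was at 32.7 FPKM in VD-2 but at 95.5 in INS + VD-2.

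Spinal cord factors summed to 17.6 FPKM in VD-2, where 6 of 14 were highest and 3 were at 0 (Sim1, Mnx1 and Dmrt3), and to 2.53 to 14.3 FPKM in the others. Pax2, a factor of inhibitory neurons, was at 7.66 FPKM in VD-2 and 6.29 FPKM in CK-3. The forebrain transcription factors summed to 5.16 FPKM in VD-2, against 20.9 to 305 FPKM in the others, and 6 of 12 were at 0 there, among them Emx2, Otx1, Tbr1, Fezf2 and Six3. Hippocampal neuron markers summed to 80.2 FPKM in VD-2, the lowest of the 9 libraries, against 124 to 761 FPKM. Of these 12 markers, however, only 3 were lowest in VD-2, while 1 was highest and 1 (Fibcd1) was at 0 there. Grik4 was at 15.6 FPKM in VD-2, against 5.08 to 16.3 FPKM in the others. VD-2 was thus low in forebrain markers and high in brainstem markers, and the part of the sampled tissue in the Hox values was not tested.

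A low forebrain sum was not always accompanied by Hox values of this size. CK-3, with a forebrain sum of 20.9 FPKM, had a summed Hox FPKM of 0.192, with a cerebellar marker sum of 3614 FPKM, against 32.8 to 279 FPKM in the 8 others. INS + VD-2, with a forebrain sum of 29.2 FPKM, had a Hox sum of 0.516, the second highest, and a midbrain and isthmus sum of 36.6 FPKM. The midbrain and isthmus sum was 13.7 FPKM in VD-2, with 6 of 12 factors at 0, and 84.2 FPKM in CK-3, with 8 of 12 at 0 and 73.2 FPKM from En2, which is also on the cerebellar list. VD-1 and VD-3 had olfactory bulb sums of 268 and 618 FPKM, and 6 libraries, VD-2 among them at 21.4, had 6.13 to 29.7 FPKM. The sum of 248 FPKM in INS + VD-2 came mostly from Th (122 FPKM) and Slc6a3 (108 FPKM), genes that also mark midbrain dopamine neurons, while Doc2g, a gene of olfactory bulb output neurons, was at 3.52 FPKM there, against 101 in VD-1 and 128 in VD-3.

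Markers of glia and of other tissue were as follows. All 10 oligodendrocyte markers were highest in VD-2, with a sum of 15390 FPKM against 1360 to 8634 FPKM, and Mbp, the myelin basic protein gene, was at 7693 FPKM there. Schwann cell markers summed to 51.02 FPKM in VD-2, against 1.63 to 31.7, and 4 of 6 were highest there. Sensory ganglion markers summed to 10.98 FPKM in VD-2 and to 13.7 in INS + VD-2, against 1.17 to 3.21 in the 7 others. Pou4f1 alone gave 3.96 FPKM of the sum in VD-2 and 7.62 FPKM in INS + VD-2. Of these 11 markers, 4 were highest in VD-2 and 2 (Scn11a and Prdm12) were at 0 there. The sums of skeletal muscle (92.9 FPKM), blood progenitor (122 FPKM) and meningeal markers (71.8 FPKM) in VD-2 lay within the range of the other libraries. Pvalb, which interneurons of the brain also express, gave 85.7 FPKM of the muscle sum, with Tnni2, Ckm and Myod1 at 0, and the haemoglobin gene Hbb gave 98.3 FPKM of the blood sum. In bulk tissue, more cells of a type and more RNA per cell cannot be told apart.

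**Figure D4:**
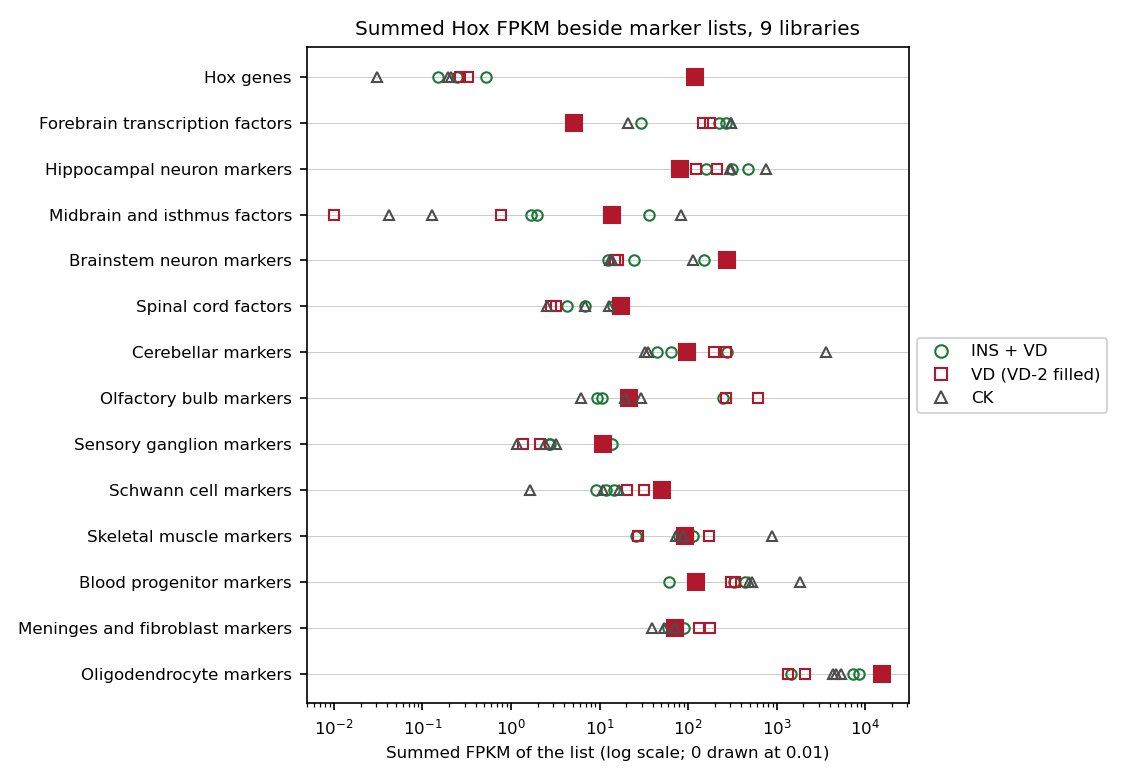
Summed FPKM (log scale) of the Hox genes and of 13 marker lists in each library of INS + VD, VD and CK, with VD-2 as a filled square. VD-2 is highest for Hox genes (118.7), brainstem (275), spinal cord, Schwann cell and oligodendrocyte markers, and lowest for forebrain (5.16) and hippocampal markers.

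Partners and regulators of Hox proteins did not share the VD-2 pattern. Of 9 Hox cofactors of the Pbx, Meis and Pknox families, which bind DNA with Hox proteins, 0 were highest in VD-2, and their sum was 135 FPKM there, within the 91.5 to 488 FPKM of the others. The FPKM of Pbx3 was 8.67, 34.9 and 12.3 in the INS + VD libraries and 55.0, 71.5 and 130 in the VD libraries, with 6.72, 3.86 and 16.0 in the CK libraries. Every VD library was thus above all INS + VD and CK libraries for Pbx3.

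Pbx3 had a log2 difference of 3.24 in VD vs. CK (SE 0.61, limma unadjusted p = 0.000451, adjusted p = 0.196) and of -2.29 in INS + VD vs. VD (SE 0.61, adjusted p = 0.512), so it passed the unadjusted rule only. It was the only one of the 9 cofactors to pass that rule in either comparison, against 8.78% of all genes in VD vs. CK and 6.17% in INS + VD vs. VD, so the count of 1 in 9 was near the background. In INS + VD vs. CK 0 of 9 passed. The medians of the cofactors were 0.70 in VD vs. CK, -0.77 in INS + VD vs. VD and 0.09 in INS + VD vs. CK, against -0.02, 0.04 and -0.0019 over all genes in the fit. Meis2 was at 18.5, 9.11 and 36.7 FPKM in INS + VD, at 75.4, 17.6 and 195 in VD, and at 45.1, 18.8 and 0 in CK, so its groups overlapped. The olfactory bulb sums given above were high in VD-1 and VD-3 and low in VD-2, and their part in the Pbx3 values was not tested.

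Of 18 Hox regulators in the table, which include retinoic acid enzymes and receptors, Polycomb proteins and Kmt2a, 0 were highest in VD-2 and 2 were at 0 there (Cyp26a1 and Cdx4). Their sum was 115 FPKM in VD-2, within the 92.3 to 206 FPKM of the others. Bmi1, a Polycomb protein that keeps Hox genes silent, was at 27.2 FPKM in VD-2 and at 1.72 to 45.5 FPKM elsewhere. Suz12, a core subunit of the Polycomb complex that methylates histone H3, was at 10.9 FPKM in VD-2 and at 0.490 to 21.6 FPKM elsewhere. In the fit of all groups 1 of 17 passed the unadjusted rule downwards in VD vs. CK and 1 of 17 upwards in INS + VD vs. VD, and 0 of 17 passed in INS + VD vs. CK, against 8.78% of all genes in VD vs. CK, 6.17% in INS + VD vs. VD and 0.94% in INS + VD vs. CK, in either direction. This was Kmt2a in both, an activator of Hox genes. It was at 6.003 to 10.9 FPKM in the INS + VD libraries and at 0, 1.47 and 7.70 in VD-1, -2 and -3. In the CK libraries Kmt2a was at 5.85 to 11.01 FPKM. Its adjusted p by limma was 0.386 in VD vs. CK and 0.512 in INS + VD vs. VD. VD-1, which also held the lowest Bmi1 and Suz12 values, was the lowest library for 28.7% of all rows. The part of this in the Kmt2a values was not tested.

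Finally, 13636 other genes with a mean of at least 1 FPKM were ranked by the correlation of log2(FPKM + 1) with the log2 Hox sum over the 9 libraries. Because 1 library carries the Hox signal, r ranks genes by how far VD-2 stands above the rest relative to the spread of the rest. The 10 genes at the top had r of 0.932 to 0.998. They included 3 genes of acetylcholine synthesis and transport. Chat, the enzyme that makes acetylcholine, was at 14.4 FPKM in VD-2 and at most 1.06 elsewhere. Slc18a3, its vesicular transporter, was at 29.4 FPKM against at most 1.63, and its row lies inside that of Chat, so reads of these 2 genes may be hard to separate. Slc5a7 was at 20.6 FPKM, as given above.

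Chodl, a marker of fast motor neurons, was at 24.0 FPKM in VD-2 and at most 1.48 elsewhere. Calcb, a calcitonin gene-related peptide gene of motor and sensory neurons, was at 9.14 FPKM against at most 0.853. Mfsd2a, a lipid transporter of the blood-brain barrier, was at 35.8 FPKM against 8.50 to 16.8. Hacd2, an enzyme of fatty acid elongation, was at 24.0 FPKM against 11.2 to 15.0. The other 3 were Mfsd14a (6.52 FPKM against at most 1.05), LOC103689983, described as hypoxanthine-guanine phosphoribosyltransferase (38.7 FPKM against at most 1.996), and the unnamed AABR07014983.2 (18.9 FPKM, at 0 elsewhere).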

How the data were processed

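Hippocampal RNA of 9 libraries, 3 each of INS + VD, VD and CK, was analysed. Per the study's methods, reads were aligned by HISAT2, and the authors deposited FPKM for each gene. The counting program and its use of strand are not given in the sources used here. The submitters' processing notes name GRCm38 and mm10, a mouse build, whereas the IDs are rat ones. Positions are therefore quoted from the table and no build is named for them. The study's sham group was not analysed here. No columns of the authors' own comparisons are in the table.

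The Hox members and the gene lists were chosen with earlier results of these data known. All members were named with their values except 1, which is not reported here; counts and sums are over all 23. For the lists and flanking rows, counts and sums were given, with at most 4 genes of each by the highest FPKM in the library with the highest Hox sum, beside markers at 0. The 10 genes most like the Hox sum were named by Pearson r. Any other gene named, such as Kmt2a and the other rows of a single library, was chosen after its values were seen.

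Values were taken as log2(FPKM + 1), which understates changes of low genes, and fitted with limma 3.58.1 (R 4.3.3) over all 9 libraries, with a trend and Benjamini-Hochberg adjustment. The main fit kept a gene if 3 or more libraries reached 0.5 FPKM. The call required an absolute log2 difference of 1 or more beside an adjusted p up to 0.05. Depth was recovered per library from rows spanning under 400 bases, as the most frequent value implied by 1 fragment, with the span taken as the length. At that depth, 87.1% to 91.8% of short-row values under 20 fragments were whole within 0.02. Fragments of a Hox gene were given where a single length made all its values whole (1830 bases for Hoxd1). The procedure was tested on simulated data. Python 3.11.15 with matplotlib 3.10.9 made the figures. Alternatives changed the pseudocount, filter, scaling, trend, libraries and replicate block.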

Additional observations from a re-analysis of the deposited data

How the results depend on the processing

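The number of Hox genes seen in VD-2 depended on the threshold, and the VD mean depended on VD-2. Of the 20 Hox genes above 0 FPKM there, 13 were above 1 FPKM. With every library rescaled to the same summed FPKM, the Hox sum was 216 parts per 1e6 in VD-2 and at most 1.06 in the others. Rows of VD-2 alone numbered 28, in place of 200, with the stricter rule. Leaving out 1 library, the mean Hox sum was 0.198 to 0.382 in INS + VD, 0.298 to 59.5 in VD and 0.111 to 0.203 in CK, with the low VD value without VD-2.

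Over all genes, the main test called 0 genes in each comparison. At the unadjusted p it gave 932 genes in INS + VD vs. VD, 1326 in VD vs. CK and 142 in INS + VD vs. CK. Leaving out 1 library gave 0 to 20 genes at the adjusted p and 391 to 2233 at the unadjusted p in INS + VD vs. VD, 0 to 28 and 918 to 2557 in VD vs. CK, and 0 and 90 to 246 in INS + VD vs. CK. The 20 and 28 came without VD-2, the 2233 and 2557 without VD-3, the 391 without INS + VD-3, the 440 in INS + VD vs. VD without VD-1 and the 90 without INS + VD-2, and no Hox gene was in these fits. For INS + VD vs. CK, the unadjusted count was 234 with a pseudocount of 0.1 and 234 with rescaled FPKM.

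In the unfiltered fit, a pseudocount of 0.1 put 1 Hox gene, Hoxd1, past the unadjusted rule in VD vs. CK, with a log2 difference of 2.01 (adjusted p = 0.498 by limma, not past the threshold). This alternative, and those without VD-2, with the block and with rescaling, were applied to the unfiltered fit after seeing the data. Without INS + VD-2, the Hoxd1 difference in INS + VD vs. CK was -0.02 in place of 0.07. Rescaling put the median of all genes at 0.24 in INS + VD vs. VD and -0.20 in VD vs. CK, and centring put it at -0.12 and 0.16. The split of higher and lower genes in INS + VD vs. VD was 549 and 383, with 907 and 248 rescaled and 425 and 534 centred. In VD vs. CK it was 588 and 738, with 480 and 1121 rescaled and 864 and 595 centred.

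With the replicate block the unadjusted counts were 927, 1384 and 187, with 0 genes at the adjusted p. Samples of the same number deviated with correlations of -0.32 to 0.38, over 0.1 in 2 of 9 pairs, so the numbers were not taken to pair the samples. The cause of these shifts was not tested. Depth limits values of 1 to 10 fragments, which is every Hox value outside VD-2 with a recovered length.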
